A study of Homo sapiens with 4 samples.

Results

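Among the regions that gained signal in HEK293 cells, a human embryonic kidney line, expressing the wild type methyltransferase, some lay very close to each other at the same locus. Such split peaks were taken as neighbouring new peaks on the same autosome whose borders were at least 1 bp and under 500 bp apart, in a list sorted by position. The rule found 1079 pairs, each with the gap between its peaks. They involved 2064 of the 12667 new peaks on chromosomes 1 to 22, or 16.3%, of 12864 new peaks in the whole list. The members were chosen by the borders of the listed peaks, so gap lengths and all peak values are given as descriptions and were not tested.

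The cells had been transiently transfected with dCas9-SunTag, an sgRNA to the CpG island of ISG15, and Ab-3A3L (WT). The last is an antibody fragment that binds the SunTag, fused to the C-terminal domains of DNMT3A and DNMT3L. They were sorted for the plasmids by FACS after 3 days, and their sonicated DNA was pulled down with MBD2, a protein that binds methylated CpGs. New peaks were those the authors listed against untreated cells of the same line. There was 1 library per condition, so nothing below has a replicate error. Data of the DNMT3A mutants K844E and R887E and of the control alone were not used.

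DNMT3A, with its partner DNMT3L, adds methyl groups to unmethylated CpGs. CpG islands are stretches rich in CpGs at many promoters, and in most cells they are kept unmethylated. Around an active start site the DNA is often free of nucleosomes and flanked by nucleosomes with the histone marks of active promoters.

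Gaps denser and gaps sparser in CpGs than both of their peaks are shown first. Every CpG is in capitals and all other bases are in lower case, 5′ to 3′. The following gap stretches held more CpGs per 100 bp than either of their peaks. They are the part of the LIFR gap upstream of the start site (hg19, chr5:38556749-38556891, minus strand), the same part of the RILPL1 gap (chr12:124018267-124018374, minus strand) and of the BICD2 gap (chr9:95527116-95527302, minus strand). The last is from a gap with its middle in an intron and no canonical start site within 1000 bp. Its longest part outside annotated untranslated regions (chr12:99288678-99288803, plus strand) is shown. Sequence just left of that part is annotated as untranslated, and starts of other transcripts in this gap are not given here. The first 100 bp of the peak to its right (chr12:99288804-99288903) are also given.
LIFR gap: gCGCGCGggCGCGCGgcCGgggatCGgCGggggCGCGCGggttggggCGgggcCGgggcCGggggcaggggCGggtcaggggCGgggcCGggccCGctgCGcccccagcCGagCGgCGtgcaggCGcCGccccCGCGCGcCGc
RILPL1 gap: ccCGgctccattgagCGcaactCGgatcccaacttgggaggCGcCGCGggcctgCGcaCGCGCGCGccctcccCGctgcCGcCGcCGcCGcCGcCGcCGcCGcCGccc
BICD2 gap: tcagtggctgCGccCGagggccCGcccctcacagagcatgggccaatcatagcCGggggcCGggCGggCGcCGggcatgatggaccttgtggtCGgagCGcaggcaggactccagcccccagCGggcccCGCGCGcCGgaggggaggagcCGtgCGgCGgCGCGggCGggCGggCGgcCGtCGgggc
Chromosome 12 gap: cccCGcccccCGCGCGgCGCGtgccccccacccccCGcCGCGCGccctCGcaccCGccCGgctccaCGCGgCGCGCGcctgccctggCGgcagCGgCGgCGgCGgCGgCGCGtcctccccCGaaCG
Chromosome 12 peak: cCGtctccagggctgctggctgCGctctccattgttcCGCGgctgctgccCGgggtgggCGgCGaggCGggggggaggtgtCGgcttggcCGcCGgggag
The LIFR stretch held 29 CpGs in 143 bp and the RILPL1 stretch 21 in 108 bp. The RILPL1 stretch ended in a run of CCG triplets. The chromosome 12 gap stretch held 28 CpGs in 126 bp, against 11 in the 100 bp of peak beside it.

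The following gap stretches held fewer CpGs than either of their peaks. The first lies between genes on chromosome 1 (chr1:206136300-206136451, plus strand) and is a whole gap, printed with the 100 bp of peak to its left (chr1:206136200-206136299) and to its right (chr1:206136452-206136551). The others are the part of the GADD45B gap upstream of the start (chr19:2476023-2476124, plus strand), the part of the H2BC26 gap upstream of the start (chr1:228645667-228645803, plus strand), and sequence between the divergent starts of H2BC21 and H2AC20 (chr1:149858233-149858467, minus strand).
Chromosome 1 left peak: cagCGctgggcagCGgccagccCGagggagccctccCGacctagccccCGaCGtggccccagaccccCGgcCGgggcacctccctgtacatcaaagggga
Chromosome 1 gap: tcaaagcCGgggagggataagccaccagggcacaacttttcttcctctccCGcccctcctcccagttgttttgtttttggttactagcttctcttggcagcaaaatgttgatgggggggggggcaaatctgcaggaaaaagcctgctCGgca
Chromosome 1 right peak: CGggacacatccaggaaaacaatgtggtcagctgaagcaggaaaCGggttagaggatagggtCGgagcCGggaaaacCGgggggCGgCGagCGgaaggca
GADD45B gap: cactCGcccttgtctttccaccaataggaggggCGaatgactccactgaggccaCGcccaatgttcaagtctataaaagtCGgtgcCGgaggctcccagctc
H2BC26 gap: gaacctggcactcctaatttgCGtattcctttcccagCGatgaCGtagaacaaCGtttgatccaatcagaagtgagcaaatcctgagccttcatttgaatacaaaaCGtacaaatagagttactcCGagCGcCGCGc
H2BC21 and H2AC20 gap: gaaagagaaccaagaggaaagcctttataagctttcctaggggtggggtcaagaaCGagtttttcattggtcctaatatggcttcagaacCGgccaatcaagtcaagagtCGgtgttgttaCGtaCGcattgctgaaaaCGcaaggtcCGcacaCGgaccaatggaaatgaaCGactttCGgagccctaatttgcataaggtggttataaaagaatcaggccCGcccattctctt
The chromosome 1 gap held 3 CpGs in 152 bp, while the 100 bp of peak on each side held 8 CpGs. The GADD45B stretch held 5 CpGs in 102 bp, with 2 copies of CCAAT and 1 of TATAAA. The stretch between the histone genes held 11 CpGs in 235 bp, with 3 copies of CCAAT and 2 of TATAAA. These words, counted on both strands, are the letters of common promoter elements, the CCAAT box and the TATA box, and a match is a description of the sequence only.

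The gaps had a median length of 266 bp (quartiles 206 and 353) and ran from 152 to 499 bp. Short gaps were the most common, with 245 from 150 to under 200 bp and 70 from 450 to under 500 bp. From outer border to outer border a pair spanned a median of 1312 bp. Just inside the limit lay the gap of SLC39A8, a zinc and manganese transporter, at 499 bp, with folds of 11.2 and 6.49. Just outside it lay a gap of 500 bp on chromosome 3, with folds of 6.70 and 6.82.

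**Figure D1:**
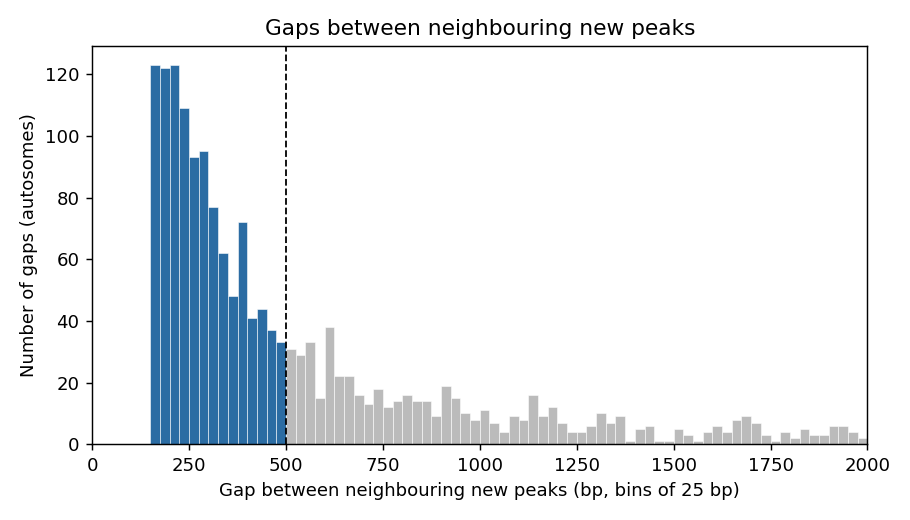
Number of gaps between neighbouring new peaks on the autosomes, in bins of 25 bp, by gap length in bp. Blue bars left of the dashed line at 500 bp are the 1079 gaps described here and grey bars are longer gaps. The shortest gap measured 152 bp and the numbers decline with length.

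The peaks of the pairs resembled the other new peaks in their listed values. Fold is the authors' ratio of fragments at the summit to a background. Its median was 7.57 in the 2064 peaks of the pairs and 7.45 in the others. Fragments at the summit, computed back from fold and p-value, had medians of 16 and 18, and peak widths had medians of 470 and 508 bp. The low number of fragments limits how sharply a border can be placed. Within a pair, the higher fold was a median of 1.33 times the lower, and in 136 pairs (12.6%) the folds were more than 2 times apart. Most pairs stood alone: of 985 runs of neighbouring peaks, 904 had 2 peaks, 69 had 3, 11 had 4 and 1 had 5. By chromosome, there were between 5.56 gaps per 100 new peaks, on chromosome 19, and 11.05, on chromosome 4.

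Coding start sites lay inside 216 of the 1079 gaps (20.02%, 95% exact binomial interval 17.7 to 22.5%). Start sites are those of canonical transcripts of protein-coding genes, and the intervals cover counting error only. The gaps held 227 of the 18978 autosomal coding starts (1.2%), or 2.74% of the 8293 coding starts with a new peak within 1000 bp. In 517 pairs (47.9%) a coding start lay in a peak but none in the gap. No canonical start of any gene lay within 1000 bp of 193 gaps (17.9%). Starts of other transcripts were not counted in these numbers. Gaps of 500 to under 1000 bp, which are longer and thus hold more sequence, contained a coding start in 38.9% of 368 cases. For gaps of 1000 to under 2000 bp the share was 23.3% of 223.

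Per length, coding starts were denser in the gaps than in the peaks beside them. There were 0.742 starts per kb in gaps and 0.473 in their flanking peaks, a ratio of 1.57 (95% exact interval 1.34 to 1.83). Against only the 250 bp of each peak next to the gap the ratio was 1.22 (1.03 to 1.45). Against stretches of the same length outside the pairs it was 5.68 (4.38 to 7.42). The middle of a region is where starts lie also in peaks that were not split. In the 350 unsplit peaks of at least 1500 bp, the middle 266 bp, the median length of a gap, held 1.54 times as many starts per kb as the sides (1.15 to 2.05), so the excess of starts in the middle was not particular to split peaks. The gaps also held about as many starts per kb as the new peaks outside the pairs, at a ratio of 1.01 (0.883 to 1.16). Gaps of 500 to under 1000 bp held 0.589 starts per kb and their flanking peaks 0.335, so starts were denser in those gaps as well. Gaps of 1000 to under 2000 bp held 0.175 and their flanking peaks 0.314.

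The gaps spread over CpG densities below and above those of their peaks, without a clear break. The kinds of gap named here come from comparing each gap with its own peaks. Their median density was 8.72 CpGs per 100 bp (quartiles 5.36 and 14.5), against 10.4 over both flanking peaks (quartiles 9.24 and 11.4). The peak values pool more sequence, which narrows their range. In equal windows of 250 bp the quartiles were 5.2 and 14.4 at the middle of gaps and 8.8 and 12.8 at the middle of the peaks. A gap was sparser in CpGs than both of its peaks in 530 cases (49.1%, 46.1 to 52.1%), denser than both in 387 (35.9%, 33.0 to 38.8%), and between them in 162. Sparser gaps had a median of 5.36 CpGs per 100 bp and a GC content of 60.6%. Denser gaps had a median of 16.0 CpGs per 100 bp and a GC content of 81.9%. For comparison, the middle of the 350 wide unsplit peaks was denser than both sides in 55.1% (49.8 to 60.4%) and sparser in 18.9% (14.9 to 23.4%). Sparser middles were thus more frequent, and denser middles less frequent, in split than in wide unsplit regions. Both sets were formed from the borders of the listed peaks, so these differences are descriptions and were not tested.

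**Figure D2:**
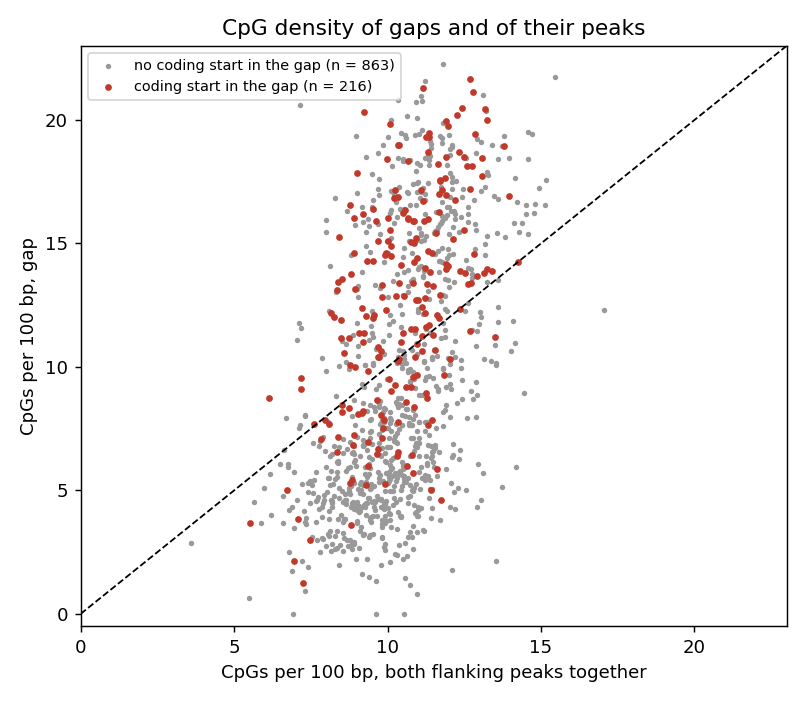
CpGs per 100 bp in each of the 1079 gaps (vertical axis) and in both of its flanking peaks together (horizontal axis), with equal densities on the dashed line. Red points are the 216 gaps with a coding start inside and grey points the other 863. The peaks, whose values pool more sequence, cover a narrower range than the gaps, and red points lie mostly above the line.

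Extremes of GC content at both ends set the gaps apart from peaks. Of the 250 bp windows at the middle of gaps, 24.6% (22.02 to 27.2%) had at least 80% GC, against 5.57% (4.62 to 6.65%) at the middle of their peaks and 12.9% (9.54 to 16.8%) at the middle of wide unsplit peaks. Windows under 60% GC made up 25.5% (22.9 to 28.2%), 4.94% (4.05 to 5.97%) and 1.43% (0.465 to 3.30%), respectively. Whether the recovery of very GC-rich DNA in the libraries had a part in the gaps was not tested, since the deposited list gives no read depth inside them. Nearly all gaps (96.0%, 94.7 to 97.1%) overlapped CpG islands rebuilt from the sequence. The paper places most of all its new peaks in CpG islands, so such overlap was not particular to split peaks. In 997 pairs (92.4%) the same island reached both peaks, and the share was 99.5% for denser and 87.2% for sparser gaps. It was 81.25% of 368 gaps of 500 to under 1000 bp and 50.2% of 223 gaps of 1000 to under 2000 bp.

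**Figure D3:**
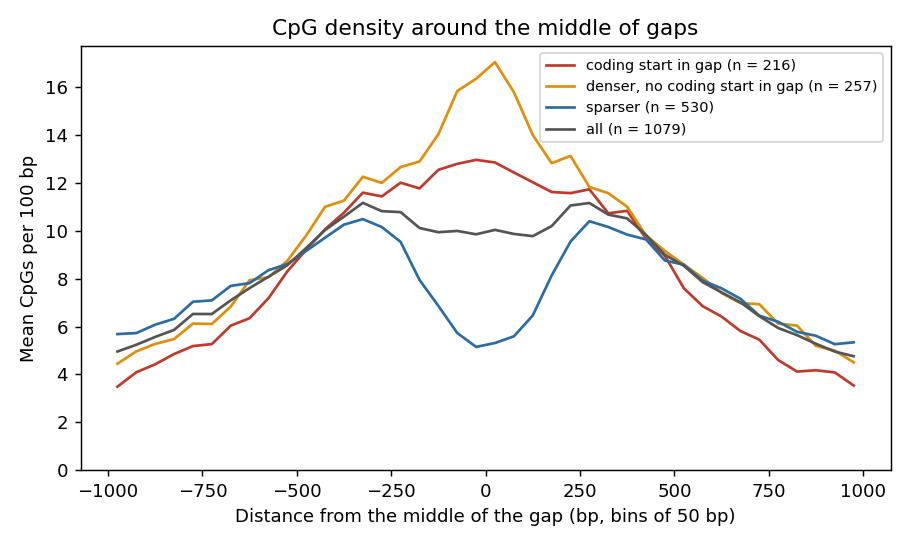
Mean CpGs per 100 bp in bins of 50 bp against the distance in bp from the middle of the gap, for all 1079 gaps (grey), 530 sparser gaps (blue), 257 denser gaps without a coding start (orange) and 216 gaps with a coding start (red). Sparser and denser gaps were sorted by this density, so their opposite shapes at the middle follow from the sorting. Gaps with a coding start were not sorted by it and rise to 13.0 at the middle.

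The kind of gap went with the presence of a start site. A coding start lay in 33.6% (28.9 to 38.5%) of denser gaps, 25.3% (18.8 to 32.7%) of those between and 8.49% (6.26 to 11.2%) of sparser gaps. Per kb, denser gaps held 3.94 times as many coding starts as sparser ones (2.82 to 5.59). The 216 gaps with a coding start had a median of 12.9 CpGs per 100 bp, above the 10.6 of their peaks, and 60.2% of them were denser than both peaks. In windows of 250 bp the median was 13.2 at coding starts in gaps and 12 at coding starts in peaks. It was 10.8 at the middle of the peaks of the pairs, so a higher density at starts was not particular to gaps. The 193 gaps without any canonical start within 1000 bp had a median of 6.67 against 9.82 in their peaks, and 61.1% of them were sparser. The median over all gaps therefore joins sets that lie on opposite sides of their peaks.

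Seen from the start sites, the share inside a new peak rose and then fell with the GC content of the surrounding 250 bp. Of 2450 coding starts at 75 to under 80% GC, 62.2% (60.3 to 64.2%) lay in a new peak. The share was 44.9% (42.1 to 47.6%) of 1284 starts at 80 to under 85%, and 4.71% (2.05 to 9.06%) of 170 starts at 85% or more. The share inside a gap was 1.10% (0.727 to 1.60%), 5.30% (4.14 to 6.67%) and 12.4% (7.81 to 18.3%) in the same classes, and thus rose where the share in peaks fell. Below 75% GC both shares were lowest in the class under 50% GC, at 0.127% in peaks and 0.169% in gaps, and highest from 70 to under 75%, at 51.8% and 1.48%. At 85% GC or more, 21 starts lay in a gap and 8 in a peak, and most of the 170 lay in neither. Most starts at low GC had no new peak nearby. Of starts with a new peak within 1000 bp, the share in a gap was 5.19% under 50% GC. It was 3.21% from 50 to under 60%, 1.43% from 75 to under 80%, 7.23% from 80 to under 85% and 17.5% at 85% or more.

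**Figure D4:**
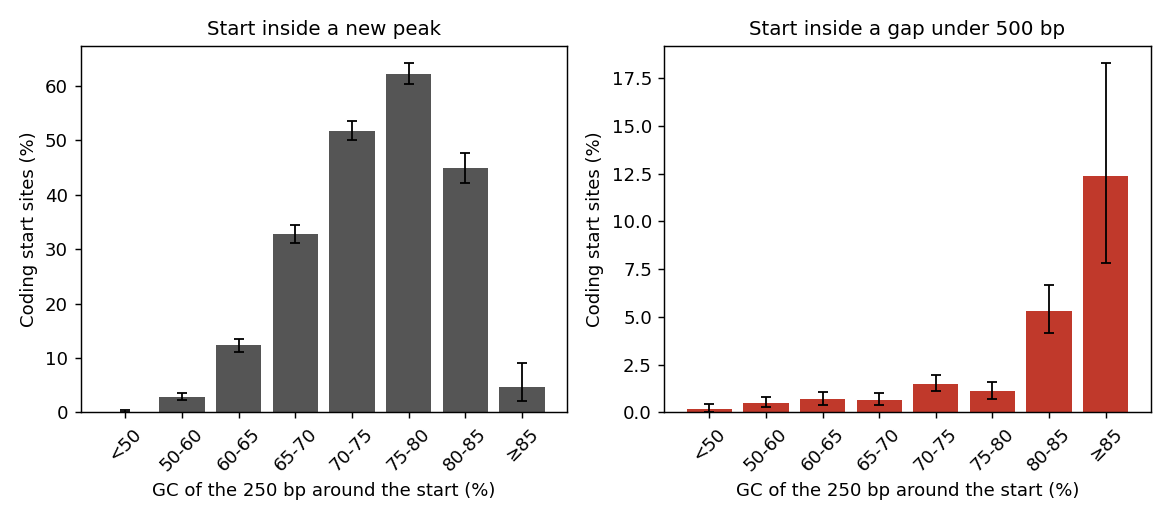
Percent of coding start sites inside a new peak (left) and inside a gap under 500 bp (right), by the GC content of the 250 bp around the start. Bars show the share in each GC class and error bars the 95% exact binomial interval, and the vertical scales differ. The share in peaks is highest at 75 to 80% GC and the share in gaps at 85% or more.

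Sparser gaps lay farther from start sites than denser ones. The middle was within 1000 bp of a coding start in 65.5% (61.3 to 69.5%) of sparser and 81.1% (76.9 to 84.9%) of denser gaps. Of gap middles within 1000 bp of a coding start, 64.8% (59.6 to 69.9%) were downstream of it for sparser gaps and 60.2% (54.5 to 65.7%) for denser gaps. Sparser middles were most frequent from 500 to under 750 bp downstream, with 73 gaps, and less frequent from 0 to under 250 bp, with 40. Denser middles clustered at the start itself, with 110 gaps in the 250 bp before it and 104 in the 250 bp after it. By annotation, 66.98% (62.8 to 70.97%) of sparser and 63.0% (58.0 to 67.9%) of denser gap middles lay in an intron or exon, and the place within the gene differed. Of the middles, 46.6% of the sparser lay in an intron of a coding gene against 16.3% of the denser, while untranslated parts of exons held 10.6% and 29.2%.

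**Figure D5:**
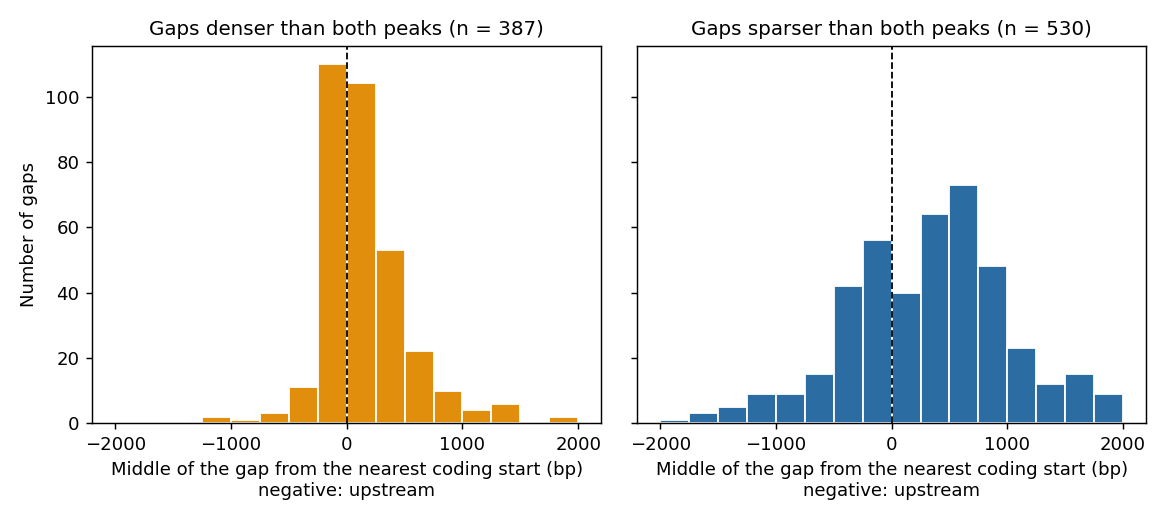
Number of gaps by the distance in bp of the middle of the gap from the nearest coding start, in bins of 250 bp, for 387 denser gaps (left) and 530 sparser gaps (right). Negative values are upstream and the dashed line marks the start. Denser gaps cluster at the start and sparser gaps have their highest bar from 500 to 750 bp downstream.

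Of the 12 pairs with a coding start in the gap and the highest lower fold, 9 had a denser gap, beside 60.2% of all 216 gaps with a coding start. FOXK2, a forkhead transcription factor, had folds of 16.8 upstream and 16.0 downstream around a gap of 288 bp (chr17:80477606-80477893) with 20.5 CpGs per 100 bp and 89.2% GC. LIFR, the receptor for leukaemia inhibitory factor, had folds of 20.7 upstream and 11.3 downstream around a gap of 158 bp. BICD2, an adaptor for the motor protein dynein, had folds of 14.2 and 11.05 around 245 bp. RILPL1, PREX1, SHLD2, RAB11FIP5, FAM120A and CHD7 also had denser gaps. PREX1 activates the GTPase RAC and CHD7 is a chromatin remodeller. GADD45B, a stress-response gene, had a sparser gap of 219 bp with 6.85 CpGs per 100 bp and 53.4% GC, between folds of 10.5 and 11.8. GNG5, a G protein subunit, and SPATA1, on opposite strands, shared a sparser gap of 376 bp, and the gap of ZFAND5 had a density between those of its peaks.

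The shortest gaps with a coding start were those of H2BC26 (153 bp), FBXO3 (155 bp), WASL (157 bp) and TLCD1 (158 bp). FBXO3 is a subunit of ubiquitin ligases and WASL promotes actin branching. The longest were those of ALOX5 (492 bp), RGS17 (495 bp), PLD6 (499 bp) and SLC39A8 (499 bp). ALOX5 makes leukotriene precursors and RGS17 dampens G protein signalling. Coding starts on both strands shared a gap in 10 cases, of which 4 were denser than both peaks, 4 sparser and 2 between. The denser were those of DHRS1 with NOP9, TMEM127 with CIAO1, PGM3 with RWDD2A, and ANKRD16 with FBH1. The sparser were those of GNG5 with SPATA1, SEPTIN10 with SOWAHC, and the histone pairs H2AC17 with H2BC17 and H2BC21 with H2AC20. The H2BC21 and H2AC20 gap had 5.25 CpGs per 100 bp against 9.93 in its peaks, and the H2AC17 and H2BC17 gap 3.59 against 8.82. The remaining gaps were those of OIP5 with NUSAP1 and of POLE with PXMP2.

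The peaks on the upstream and downstream sides of a start were close in strength. In the 206 gaps with starts on 1 strand, the upstream peak had a median fold of 7.10 and the downstream peak 7.45. The downstream peak had the higher fold in 117 of 203 pairs with unequal folds (57.6%). By fragments at the summit it was the higher in 96 of 187 pairs (51.3%). These are descriptions, with no direction drawn from them. Unequal pairs existed both ways. PCSK6, a proprotein convertase, had 1.98 upstream and 6.99 downstream, with background rates of 37.5 and 4.58 fragments. H2BC26 had 18.3 upstream and 6.81 downstream, with background rates of 0.694 and 2.08 fragments. Its summits had 30 fragments upstream and 20 downstream.

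Few members of the gene groups examined had their start in a gap. None of the 14 ribosomal protein genes with a new peak within 1000 bp did, and none of 19 proteasome, 29 translation factor, 37 splicing, 22 mitochondrial ribosomal, 19 DEAD/DEAH box and 35 histone modifier genes. The upper bounds of these shares ran from 9.49% to 23.2%, all above the 2.74% of all coding genes, so a lower share was not detectable in any of them. Of 197 zinc finger genes with a near peak, 5 had their start in a gap (2.54%, 0.829 to 5.82%): ZNF174, ZNF276, ZNF467, ZNF706 and ZNF853. Among 66 developmental factors it was FOXK2 only and among 35 RAB GTPases RAB26 only. Histone genes were looked at after their values were seen. Of 35 with a near peak, 6 had their start in a gap, namely H4C15, H2BC21, H2AC20, H2BC26, H2AC17 and H2BC17. Histone genes have near-identical copies, whose reads the mapping could have split.

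Some short promoter words differed in frequency between the kinds of gap and others did not differ beyond their intervals. In 250 bp windows at the middle of gaps, the GC box GGGCGG, bound by SP1, was found in 92.2% (89.1 to 94.7%) of denser and 39.6% (35.4 to 43.9%) of sparser gaps, on either strand. It was in 70.5% of windows at the peaks of the pairs and in 58.9% of windows at all coding starts. CCAAT, bound by NF-Y, was found in 24.9% (21.3 to 28.8%) of sparser and 11.9% (8.84 to 15.5%) of denser gaps, against 10.8% (9.50 to 12.2%) of the peaks and 29.1% of all coding starts. TATAAA was in 4.72% (3.08 to 6.88%) of sparser gaps, 0.775% (0.160 to 2.25%) of denser gaps, 1.26% (0.824 to 1.84%) of the peaks and 7.33% of all coding starts. GGGCGG is made of G and C alone while the others hold A and T, and the part of base composition in these shares was not tested. CCGGAAG, bound by ETS factors, was in 3.88% (2.19 to 6.31%) of denser and 4.15% (2.62 to 6.22%) of sparser gaps, against 12.5% of all coding starts. CACGTG, an E-box, was in 3.36% (1.80 to 5.68%) and 4.15% (2.62 to 6.22%), against 6.60%. The YY1 word was in 2.84% (1.43 to 5.03%) of denser and 0.377% (0.0457 to 1.36%) of sparser gaps, against 2.07%. The NRF1 palindrome, a ZBTB33-type palindrome and the cAMP response element TGACGTCA were in 0.834%, 0.278% and 0.741% of all gaps and in 1.41%, 0.537% and 2.28% of all coding starts. Their shares in denser and in sparser gaps were all under 1%. At the peaks of the pairs, CCGGAAG was in 4.65% of windows, CACGTG in 5.38% and the YY1 word in 0.388%. The NRF1 palindrome, the ZBTB33-type palindrome and TGACGTCA were in 0.533%, 0.145% and 0.291% of them. Windows at coding starts are centred on a start, whereas 863 gaps held none. CCGGAAG was in 9.25% of windows at coding starts in gaps and 11.7% at coding starts in peaks. For GGGCGG these shares were 84.1% and 83.3%, for CCAAT 27.8% and 22.1%, and for TATAAA 4.85% and 2.80%.

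Of the 5 pairs with the highest lower fold and no canonical start of any gene within 1000 bp, 3 were sparser and 2 denser. Among all 193 such gaps the shares were 61.1% and 26.4%. The strongest, between genes on chromosome 11 (chr11:19367443-19367766), had folds of 18.8 and 19.97 around a gap of 324 bp with 4.63 CpGs per 100 bp. The chromosome 1 gap printed above lay between folds of 14.9 and 20.5. The chromosome 12 gap printed above, with its middle in an intron, was denser and lay between folds of 14.3 and 13.0. It had 21.6 CpGs per 100 bp over its 204 bp and 88.7% GC. The other denser gap, between genes on chromosome 8, had 16.8 CpGs per 100 bp over 161 bp, between folds of 13.0 and 14.9. The remaining sparser gap, on chromosome 1, had 5.17 CpGs per 100 bp over 348 bp, between folds of 26.0 and 13.0.

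Runs of at least 4 peaks occurred at 12 loci. The run of 5 peaks (chr2:60776522-60779847) lay 2605 bp from the nearest coding start, that of BCL11A, a repressor of fetal globin, and its 4 gaps were all sparser. A run of 4 spanned H2BC21, H2AC20 and H2AC21 (chr1:149857184-149859556), again with sparser gaps throughout. Runs at SLIT2, an axon guidance ligand, and ZHX2 had sparser gaps throughout, whereas those at CAMK2N2, PDE10A, ZNF703 and MMP17 mixed denser and sparser gaps. The run at FGFR3, a growth factor receptor, had 4 peaks and no sparser gap. A run on chromosome 1 (chr1:228765457-228768682) had folds of 1.36 to 1.89 over background rates of 116 to 187 fragments, far above the genome-wide rate of 0.611. It lies in the array of 5S ribosomal RNA genes, whose copies are near-identical. Rates over 20 were found in 24 of the 1079 pairs, and without them the share of gaps with a coding start was 20.4%.

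ISG15, VEGFA, ACTB and GAPDH, which the study names, had no start in a gap. The start of ISG15, the target, had no new peak within 1000 bp and was 11419 bp from the nearest. That of VEGFA was 317 bp from a peak, and those of ACTB and GAPDH were inside peaks. By targeted bisulfite sequencing with this system, the paper reports efficient methylation at ISG15 and also methylation at VEGFA. The paper also shows MBD-seq browser views of these loci, and from them describes a signal at ISG15 with the DNMT3A mutants. Why the list of new peaks holds none near ISG15 was not tested. A start outside the listed peaks is therefore not shown to lack methylation.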

How the data were processed

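MBD-seq covered 4 conditions of HEK293 cells, each with 1 library, and the new peaks of the Ab-3A3L (WT) library were used here. The authors mapped reads to hg19 with Bowtie2, and the submitters' processing notes also name FastQC, deepTools and MACS2, with the builds hg19 and GRCh37. Peak caller settings are not given in the sources used here. The deposited list has 10 columns. Its fold column is the authors' ratio of summit fragments to background. As −log10, the authors deposited a p-value and a q-value per peak. The deposited score was not used. Total read numbers of the libraries were not analysed here, so depth is known only at the summits.

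The summit's fragment number k and its background rate follow from fold = (k + 1)/(rate + 1) and a p-value equal to the Poisson tail above k. The largest miss of the listed −log10 p was 0.000358. Gaps were read from the GRCh37 sequence and placed against canonical starts of GENCODE release 44 lifted to that build. CpG islands were rebuilt with a score of 17 per CpG and -1 per other base, keeping segments over 200 bp with at least 50% GC and an observed to expected ratio over 0.6, on sequence without repeat masking. Shares have 95% exact binomial intervals, as do ratios of starts per kb, conditional on their sum. No p-value was computed, because regions are not replicates. The members, gene lists and comparisons were chosen with earlier results of these data known. Genes were named by rules: the 12 pairs with a coding start and the highest lower fold, the 4 shortest and 4 longest such gaps, gaps with several starts, members of the gene lists, the 5 highest pairs without a start nearby, the 5 most unequal pairs each way, runs of at least 4 peaks, and ISG15, VEGFA, ACTB and GAPDH. Alternatives covered the gap limit, the peak threshold, runs, gene types, transcripts, the flanks, the islands and the measure of peak height. The steps were tested on simulated data. Python 3.11.15 was used with matplotlib 3.10.9, numba 0.67.0, scipy 1.17.1, pandas 2.3.3 and numpy 2.4.6.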

Additional observations from a re-analysis of the deposited data

How the results depend on the processing

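Of 46 alternatives, 33 stayed within the interval of the reported share or within 1.5 times the reported count or ratio, 12 moved further and 1 turned. The turn was in the ratio of median CpG density of gaps to that of their peaks, which was 0.843 over all gaps and 1.21 over gaps with a coding start inside. The number of pairs was 665 for gaps under 300 bp, 325 with a −log10 q of at least 10 at both peaks, and 210 with at least 20 fragments at both summits. The share of gaps with a coding start was 17.1% for gaps under 300 bp, 24.8% for gaps under 1000 bp, 23.2% with genes of all types, 37.5% with all transcripts of coding genes, 33.6% with starts up to 100 bp outside the gap, and 17.1% with at least 20 fragments. The share of gaps denser than both peaks was 41.5% with a −log10 q of at least 10, and 31.8% against the 250 bp of each peak next to the gap. The share of gaps in a rebuilt island was 96.0%, and 92.7% when at least 0.5 of the gap had to be covered. The settings with a minimum number of fragments, a limit on the background rate, and the density shares by q or by the adjoining 250 bp were chosen after seeing the data. No paired analysis was possible because each condition had 1 library, and no replicate could be left out. With a median of 16 fragments at the summits of these peaks, borders are uncertain, and signal inside a gap was not measured, so a gap is not shown to be unmethylated.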
